A study of Pyrus pyrifolia with 6 samples.

Results

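Thiamine thiazole synthase makes the thiazole part of thiamine (vitamin B1). The gene LOC103948770, named thiamine thiazole synthase, chloroplastic, in the deposited table, was selected by its level, as 1 of the most abundant transcripts of pear pulp. It is 1 gene of 38969 in the table, and 1 other row carries the same product name, LOC103967326. RNA was sequenced from healthy pulp and from watercore pulp, which is translucent and soaked with fluid, with 3 libraries per group. According to the labels, both groups came from Pyrus pyrifolia fruits of the cultivar Qiurong, from 5-year-old trees in 1 orchard, and both carry the harvest label 120D, as health in one group and with watercore in the other. The labels name no other treatment. The labels name fruit skin as the organ and pulp as the tissue that was sorted, whereas the study describes pulp, and it also gives another cultivar name, tree age and harvest day than the labels. According to the study the libraries are biological replicates, and neither source says which fruits or trees entered which library, so that p-values measure the spread between these libraries.

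Plants, fungi and bacteria make thiamine from a thiazole and a pyrimidine that are built separately and then joined. In plants the thiazole is made in the plastid by the enzyme called THI1 in Arabidopsis and THI4 in yeast, from NAD, glycine and a sulfur atom. The plant and yeast enzymes take that sulfur from a cysteine of their own chain and do not recover it, so that each protein molecule is used up by the reaction. The product, as thiamine diphosphate, is the cofactor of pyruvate decarboxylase, pyruvate dehydrogenase and other enzymes that cut bonds beside a carbonyl group.

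Each library held between 14382020 and 15290688 counts, with 24757 to 25105 genes above 0 in healthy pulp and 27133 to 27293 in watercore pulp. Marker lists by product name gave the following summed levels in CPM, counts scaled to a fixed library total. Green tissue genes, 54 rows with 6 at 0 in every library, reached 1143 to 1170 in healthy and 1157 to 1263 in watercore pulp, most of it from 1 small subunit gene of the carbon-fixing enzyme Rubisco, LOC103928816. The 5 Rubisco small subunit rows summed to 881 to 902 in healthy and 922 to 1031 in watercore pulp. The 27 rows of chlorophyll a-b binding proteins went the other way, with 83.4 to 93.6 in healthy and 75.3 to 78.1 in watercore pulp. Skin genes, 41 rows with 17 at 0 and 35 under 1 CPM, reached 21.4 to 25.0 and 18.6 to 20.0. All 3 rows named MERISTEM L1, an epidermal regulator, were at 0, and 6 of the 8 rows named ECERIFERUM 1, a wax enzyme, were at 0. The skin rows of the highest CPM were named long-chain-alcohol O-fatty-acyltransferase, with 9.02 ± 1.52 in healthy and 1.44 ± 0.466 in watercore pulp for LOC103935594, 7.14 ± 0.430 and 4.47 ± 0.612 for LOC103954105 and 0.160 ± 0.0799 and 4.44 ± 0.967 for LOC103951434. Vascular genes, 22 rows with 3 at 0, reached 137 to 157 and 171 to 182. Seed genes, 30 rows with 13 at 0, reached 163 to 213 in healthy and 1676 to 1835 in watercore pulp, mainly through 11S globulin and legumin, which are storage proteins. The 13 seed rows named oleosin summed to 57.6 to 77.2 in healthy and 70.9 to 83.9 in watercore pulp, with overlapping groups. The part of these markers in the results on thiamine genes was not tested, and in bulk tissue fewer cells of a type and less RNA per cell cannot be told apart.

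LOC103948770 lies on scaffold NW_008988097.1, plus strand, from 904725 to 907776, and the table gives it a length of 1454 bases. The sources used here do not give the genome build behind these coordinates. Its counts were 388671, 397004 and 380136 in the healthy libraries and 323511, 292988 and 297916 in the watercore libraries. In deposited FPKM, fragments scaled for gene length and library size, the values were 17932, 18116 and 18186 in healthy pulp, a mean of 18078 ± 131 (SD, n = 3), and 14603, 13987 and 14011 in watercore pulp, a mean of 14200 ± 349. The 3 healthy libraries stood above the 3 watercore libraries, and the gap of 3330 FPKM between the groups was wider than the range of 254 within healthy and of 616 within watercore pulp. The transcript took 2.66%, 2.67% and 2.64% of all counts in the healthy libraries and 2.12%, 2.02% and 2.06% in the watercore libraries. That is 1 count in 37.5 to 37.8 in healthy pulp and 1 in 47.3 to 49.5 in watercore pulp. It ranked 2 by FPKM in all 6 libraries, and by raw count it ranked 2 in 5 libraries and 3 in healthy library 3. These levels and ranks are what the gene was selected on and are given as a description.

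**Figure D1:**
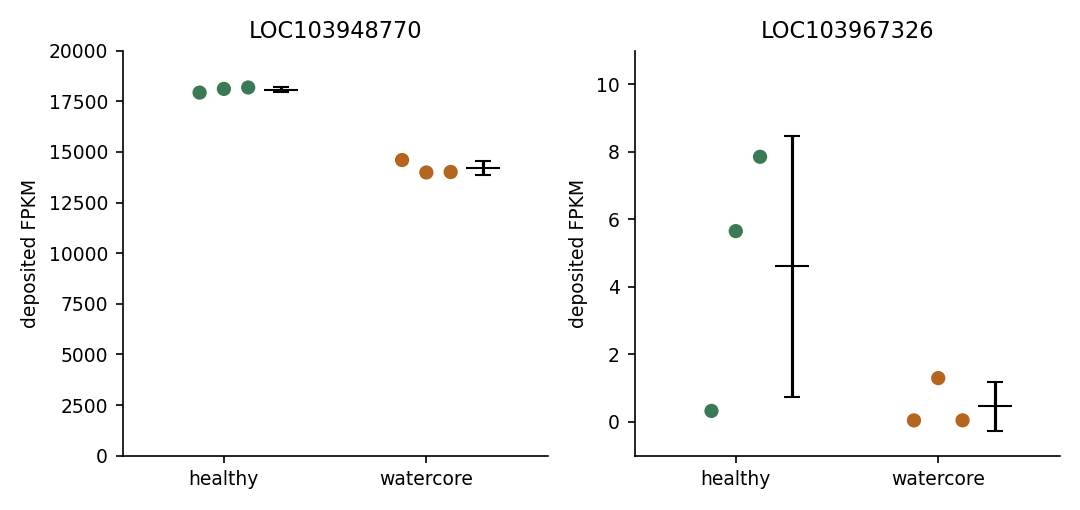
Deposited FPKM of the thiazole synthase genes LOC103948770 (left) and LOC103967326 (right), each point 1 library, with the mean and SD of 3 libraries as bars and the vertical axes on different scales. LOC103948770 lay between 13987 and 18186 FPKM with no overlap of the groups, while LOC103967326 lay between 0.0455 and 7.86 FPKM with overlapping groups.

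The replicates were close. The coefficient of variation of FPKM was 0.724% in healthy and 2.46% in watercore pulp. On the log2 CPM scale the SD within groups was 0.0262, where counting error alone would give 0.00245. It was the 104th smallest of 6340 genes that averaged 5 or more on that scale, where the median gene had 0.0870. Counting error is larger for genes of fewer counts, so this rank depends in part on the level that selected the gene. The SD was not compared among genes of like level.

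The comparison of watercore with healthy pulp is the contrast of the study and was not used to select the gene. LOC103948770 was lower in watercore pulp, at 20690 ± 514 CPM against 26560 ± 192 CPM (SD, n = 3). The log2 fold change was -0.36 (SE 0.05), a level that fell by 22.1%, with an adjusted p of 3.1e-04 in the quasi-likelihood test of edgeR with Benjamini-Hochberg adjustment over 21200 genes. It therefore passed the adjusted p of 0.05 and not the additional minimum of 1 on the log2 scale that defines a called gene. The background was broad: 30.4% of tested genes passed the adjusted p alone and were lower, 32.3% passed it and were higher, and 33.8% had all 3 watercore libraries below all 3 healthy libraries. Among the tested genes, 5516 (26.02%) passed the adjusted p with a log2 fold change at least as low as that of the gene. The median over all tested genes was 0.00, so the gene lay below the middle of the table.

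The size of the difference moved with a correction for gene length. Among tested genes of 1116 to 1575 bases, the length class that holds LOC103948770, the median log2 fold change was -0.19, and the medians of the 5 length classes went from -0.37 in the shortest to 0.38 in the longest. With offsets that take out each library's trend of counts over length, the log2 fold change of the gene was -0.21 with an adjusted p of 0.0028 in edgeR. No pseudocount or scaling turned its direction, and the plot of all ways of processing shows the range.

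**Figure D2:**
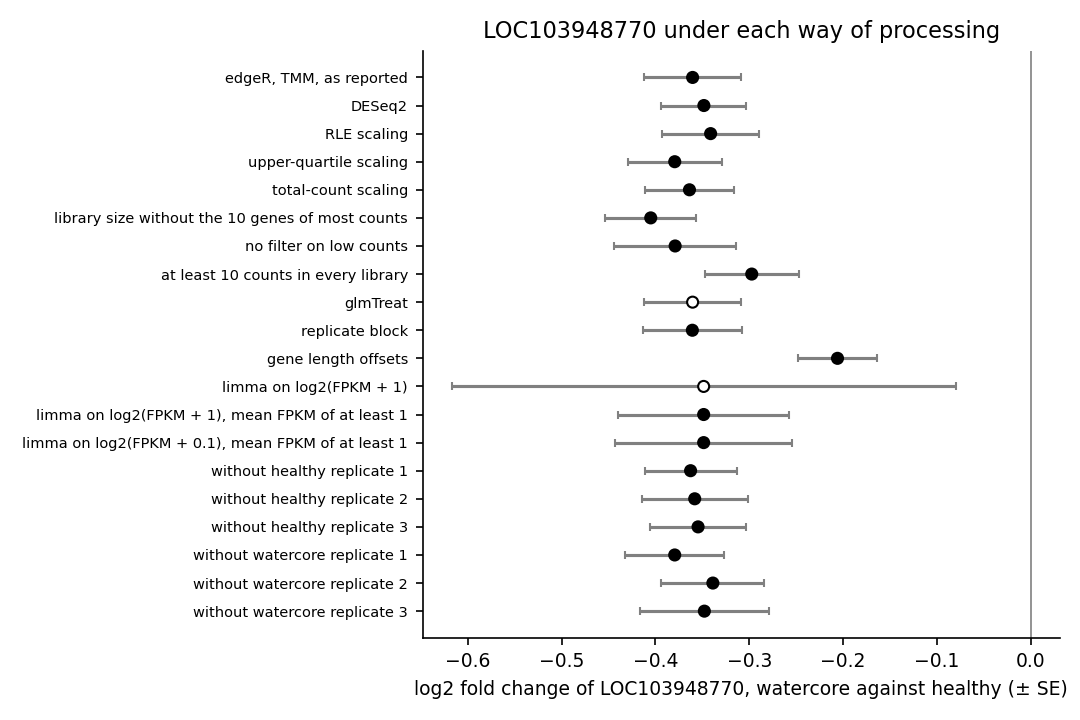
Log2 fold change of LOC103948770, watercore against healthy pulp, under the reported fit and each of the 19 alternatives, with points as estimates, bars as ± 1 SE and open points where the adjusted p was not under 0.05. The estimates ran from -0.405 to -0.206, and the open points are the test against a minimum fold change (glmTreat) and limma on log2(FPKM + 1) with no filter on low values.

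The other row of the name, LOC103967326 (thiamine thiazole synthase, chloroplastic-like), lies on scaffold NW_008988049.1, minus strand, from 691697 to 694494, and is 1443 bases long in the table. Its counts were 7, 123 and 163 in healthy pulp and 1, 27 and 1 in watercore pulp, or 0.325, 5.66 and 7.86 FPKM and 0.0455, 1.30 and 0.0474 FPKM. Healthy library 1 was lower than watercore library 2, so the groups overlapped. The log2 fold change was -3.33 (SE 1.17) with an adjusted p of 0.0330 in edgeR, which makes it called as lower, as were 7.54% of tested genes. The call was lost without healthy library 2 (log2 fold change -3.15, adjusted p = 0.0721) or 3 (-2.70, 0.0873) and without watercore library 1 (-2.78, 0.0998) or 3 (-2.80, 0.0972). It was kept without healthy library 1 (-3.87, adjusted p = 0.0057) and without watercore library 2 (-6.46, 0.0093), all in edgeR. DESeq2 gave -3.32 with an adjusted p of 0.0900.

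Nearly all counts of the name belonged to LOC103948770. LOC103967326 held 0.00180% (95% Clopper-Pearson interval 0.00072% to 0.00371%), 0.0310% (0.0257% to 0.0370%) and 0.0429% (0.0365% to 0.04997%) of the summed counts in healthy pulp. In watercore pulp it held 0.00031% (0.0000078% to 0.00172%), 0.00921% (0.00607% to 0.0134%) and 0.00034% (0.0000085% to 0.00187%). These intervals cover counting error only. The largest share of the minor gene was 139 times the smallest, and the smallest rests on 1 count in watercore library 1. Among the libraries, 2 of the healthy ones had the largest shares. The share of LOC103948770 averaged 99.9748% in healthy and 99.9967% in watercore pulp, a difference of 0.0219 percentage points (exact two-sided permutation test p = 0.2, where 3 against 3 libraries cannot go below 0.1). Per length, the FPKM of LOC103948770 was 2314 to 321064 times that of LOC103967326. The sources used here do not give how reads that match both genes were counted, and the part of such reads in these counts was not tested.

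Another row overlaps the gene. LOC103948773, a polyubiquitin gene annotated on the opposite strand from 892603 to 911741, spans all 3052 bases of LOC103948770. Its counts were 15, 18 and 9 in healthy and 112, 79 and 60 in watercore pulp, higher in every watercore library (log2 fold change 2.56, SE 0.33, adjusted p = 1.6e-04 in edgeR). The sources used here do not say whether counting used the strand, and without strand the reads of overlapping genes cannot be told apart. Its counts are few beside those of LOC103948770.

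The pair of thiazole synthase genes sits in a pair of matching neighbourhoods. Within 60 kb on either side there were 19 other genes around LOC103948770 and 10 around LOC103967326, and 8 product names occurred on both sides. These 8 names followed each other in exactly reversed order on the 2 scaffolds, and the thiazole synthase genes themselves lie on opposite strands. The neighbours were chosen by position after the table was opened. Comparing FPKM, the SUI1 translation factor gene LOC103948771 beside LOC103948770 had 127 ± 3.54 in healthy and 93.4 ± 6.68 in watercore pulp. Its namesake LOC103967337 beside LOC103967326 had 796 ± 41.5 and 650 ± 36.6 FPKM, 6.25 and 6.96 times as much. For the trafficking complex subunit, LOC103967353 had 6.16 times the healthy FPKM of LOC103948769, and for the TBC1 domain protein, LOC103967286 had 2.84 times that of LOC103948776. For the DDRGK domain protein the ratio in healthy pulp was 1.51 (LOC103967307 over LOC103948774) and for protein disulfide-isomerase 5-3 it was 1.503 (LOC103967256 over LOC103948779). Each of these 5 neighbours had the higher mean in healthy pulp on the side of the low thiazole synthase gene, without a test, and for protein disulfide-isomerase 5-3 the means, 3.99 ± 0.337 and 6.01 ± 1.87 FPKM, were closer than the sum of their SDs. The thiazole synthase pair itself leaned the other way, with mean FPKM 3919 times higher for LOC103948770 in healthy and 30612 times higher in watercore pulp. The early nodulin-like pair had under 0.2 FPKM, and the gibberellin 2-beta-dioxygenase 8 and COBRA-like protein 10 pairs had no count in any library.

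**Figure D3:**
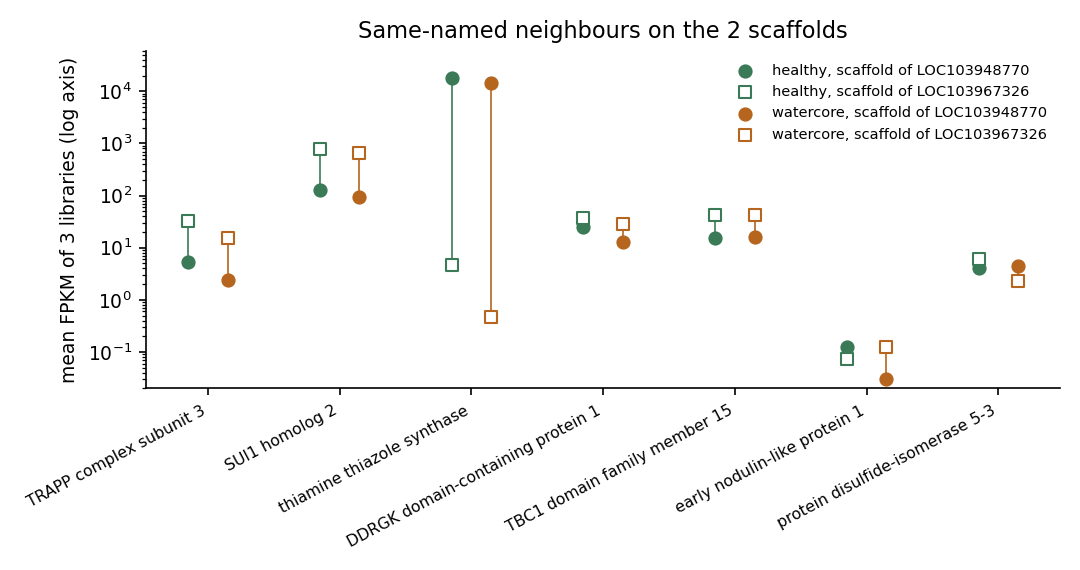
Mean FPKM over 3 libraries (log axis) of genes that share a product name between the scaffold of LOC103948770 (filled circles) and that of LOC103967326 (open squares), in healthy and watercore pulp. A value of 0 is drawn at a fixed floor near the bottom of the axis, and pairs with no count in any library are left out. Except for the early nodulin-like pair, whose levels were near 0, and protein disulfide-isomerase 5-3 in watercore pulp, the open squares lie above the circles, whereas for thiamine thiazole synthase they lie far below.

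Between the groups, those of these neighbours that passed the adjusted p in the reported fit were all lower in watercore pulp. Over all tested genes, 30.4% passed and were lower and 32.3% passed and were higher. LOC103948771 and LOC103967337 had log2 fold changes of -0.46 (adjusted p = 3.1e-04) and -0.30 (adjusted p = 0.0029) in edgeR. With gene length offsets LOC103948771 was at -0.076 (adjusted p = 0.246) and LOC103967337 at 0.086. LOC103948769 and LOC103967353 were called as lower at -1.13 and -1.06. LOC103967256 was called as lower at -1.41, and its namesake LOC103948779 had 0.12 with an adjusted p of 0.624. For the DDRGK domain protein, LOC103948774 and LOC103967307 had -0.95 (adjusted p = 1.9e-04) and -0.40 (adjusted p = 0.0011) in edgeR. For the TBC1 domain protein, LOC103948776 and LOC103967286 had 0.08 (adjusted p = 0.389) and -0.01 (adjusted p = 0.865) in edgeR.

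**Figure D4:**
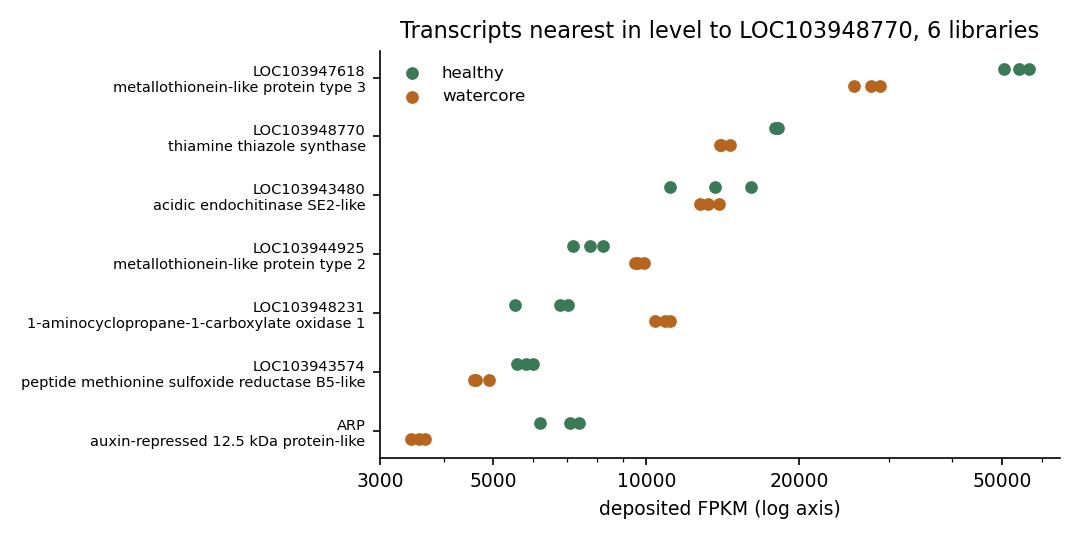
Deposited FPKM (log axis) of LOC103948770 and of the transcripts nearest to it in mean FPKM, each point 1 library. LOC103948770, second in the order, has the tightest healthy points, and none of the other genes shown overlaps it within a group.

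In the order of mean FPKM, 1 gene stood above LOC103948770. LOC103947618, a metallothionein-like protein of type 3 from a family of small metal-binding proteins, had 53755 ± 2993 FPKM in healthy and 27328 ± 1635 FPKM in watercore pulp. Directly below stood LOC103943480, an acidic endochitinase named for the breakdown of chitin, with 11122, 13671 and 16041 FPKM in healthy and 12770, 13911 and 13251 FPKM in watercore pulp. Its healthy libraries spread widely and its groups overlapped (log2 fold change -0.04, adjusted p = 0.758 in edgeR). It was below LOC103948770 in every library of the same group, but its highest healthy value exceeded all 3 watercore values of LOC103948770. Next came LOC103944925, a metallothionein-like protein of type 2, with 7719 ± 510 and 9683 ± 207 FPKM, and LOC103948231, 1-aminocyclopropane-1-carboxylate oxidase 1, which makes ethylene, with 6439 ± 800 and 10804 ± 371 FPKM. LOC103943574, a peptide methionine sulfoxide reductase B5, an enzyme that repairs oxidized methionine, had 5782 ± 209 and 4714 ± 173 FPKM. The auxin-repressed protein gene ARP had 6890 ± 624 and 3564 ± 108 FPKM. In watercore pulp the means of LOC103948770 and LOC103943480, 14200 ± 349 and 13311 ± 573 FPKM, were closer than the sum of their SDs, although no library overlapped. LOC103944925 and LOC103948231 changed places between the groups. Of the 10 genes of highest mean FPKM, 6 passed the adjusted p and were lower in watercore pulp (30.4% over all tested genes), 3 passed and were higher (32.3%), and 1 did not pass.

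The genes whose profile was most like that of LOC103948770 were found by the root mean square (RMS) difference of centred log2 CPM over the 6 libraries, among 6339 other genes that averaged 5 or more on that scale. They were LOC103927959 (putative G3BP-like protein), LOC103950869 (a porin of the mitochondrial outer membrane), LOC103929412 (uncharacterized), LOC103927041 (cyanate hydratase) and LOC103946613 (a subunit of the vacuolar proton pump). Their RMS differences were 0.0120 to 0.0199 and their log2 fold changes -0.37 to -0.36. In LOC103927959 the CPM were 164, 162 and 162 in healthy and 129, 125 and 126 in watercore pulp. The likeness is common, since 162 genes (2.56%) lay within an RMS difference of 0.05, and all points share the libraries and their scaling. With gene length offsets LOC103927041 was at -0.076 (adjusted p = 0.166 in edgeR), whereas the others named here stayed lower and still passed the adjusted p.

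The other genes of thiamine synthesis had far lower levels, and none of those tested passed the adjusted p as lower. The list held 5 rows, of which 3 passed the filter on low counts, and 2 of the 3 passed the adjusted p in edgeR and were higher, beside 32.3% of all tested genes, and 0 were lower. The median log2 fold change of the 3 was 0.64, beside 0.00 over all tested genes. LOC103963218, phosphomethylpyrimidine synthase, which makes the pyrimidine part and is called THIC in Arabidopsis, had counts of 97, 81 and 89 in healthy and 191, 183 and 174 in watercore pulp. Every watercore library was above every healthy library, at 2.56 ± 0.248 FPKM in healthy and 5.25 ± 0.180 FPKM in watercore pulp (log2 fold change 1.03, SE 0.13, adjusted p = 1.8e-04 in edgeR). It was called as higher, as were 17.6% of tested genes, and it fell below the minimum of 1 without healthy library 2 (0.95) and with gene length offsets (0.92), with adjusted p still under 0.05. LOC103940368, the bifunctional enzyme TH1, which joins both parts, had 466, 489 and 450 counts in healthy and 569, 565 and 520 in watercore pulp. It was slightly higher (14.8 ± 0.314 and 17.5 ± 0.856 FPKM, log2 fold change 0.23, SE 0.07, adjusted p = 0.0218 in edgeR). That p rose to 0.0508 without healthy library 1, to 0.0561 and 0.0643 without watercore library 1 and 2, to 0.0518 with gene length offsets and to 0.0600 in DESeq2. LOC103934130, thiamine pyrophosphokinase 1, which makes the active cofactor, had 14, 8 and 9 counts in healthy and 16, 10 and 23 in watercore pulp. Its groups overlapped, with a log2 fold change of 0.64 and an adjusted p of 0.212. The remaining rows, a second phosphomethylpyrimidine synthase (LOC103938583) and a second pyrophosphokinase (LOC103934150), had 0 to 12 counts in each library.

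Per length, the mean FPKM of LOC103948770 was 1220 times that of TH1 in healthy pulp and 812 times in watercore pulp. Over LOC103963218 the ratio was 7070 in healthy and 2703 in watercore pulp. The range over libraries was 1193 to 1242 against 762 to 842 for TH1, and 6493 to 7942 against 2594 to 2774 for LOC103963218. The thiazole gene thus led the genes of the pyrimidine and of the joining step by a smaller multiple in every watercore library than in any healthy library.

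Hydroxyethylthiazole kinase returns free thiazole to the pathway. This name was added to the lists after the table was opened. Its 2 rows fell, LOC103952223 from 7.07 ± 0.395 to 2.78 ± 0.747 FPKM (log2 fold change -1.36, SE 0.22, adjusted p = 6.4e-04) and LOC103966040 from 6.04 ± 0.627 to 2.04 ± 0.489 FPKM (log2 fold change -1.57, SE 0.24, adjusted p = 4.1e-04), both called as lower in edgeR. The counts of LOC103952223 were 127, 123 and 131 in healthy and 56, 34 and 60 in watercore pulp. The counts of LOC103966040 were 83, 103 and 87 in healthy and 32, 37 and 23 in watercore pulp, so that neither gene had overlapping groups. Over all tested genes, 7.54% were called as lower, and 33.8% had every watercore library below every healthy library.

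Genes named for thiamine transport were lower. Of 6 rows, 4 were tested, and all 4 passed the adjusted p and were lower, beside 30.4% of all tested genes, and 1 of them was called as lower, beside 7.54%. Their median log2 fold change was -0.77. LOC103932016, the mitochondrial thiamine pyrophosphate carrier, which brings the cofactor into mitochondria in yeast and animals, went from 15.97 ± 1.32 to 11.95 ± 0.662 FPKM (log2 fold change -0.43, adjusted p = 0.0050). The other 3 carry the name thiamine-repressible mitochondrial transport protein THI74, after a yeast gene, and their role in pear is not given by the table. The largest change was in LOC103927715, from 9.77 ± 0.106 to 3.50 ± 0.825 FPKM (log2 fold change -1.49, SE 0.16, adjusted p = 6.7e-05 in edgeR). Its counts were 246, 244 and 233 in healthy and 79, 107 and 72 in watercore pulp.

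**Figure D5:**
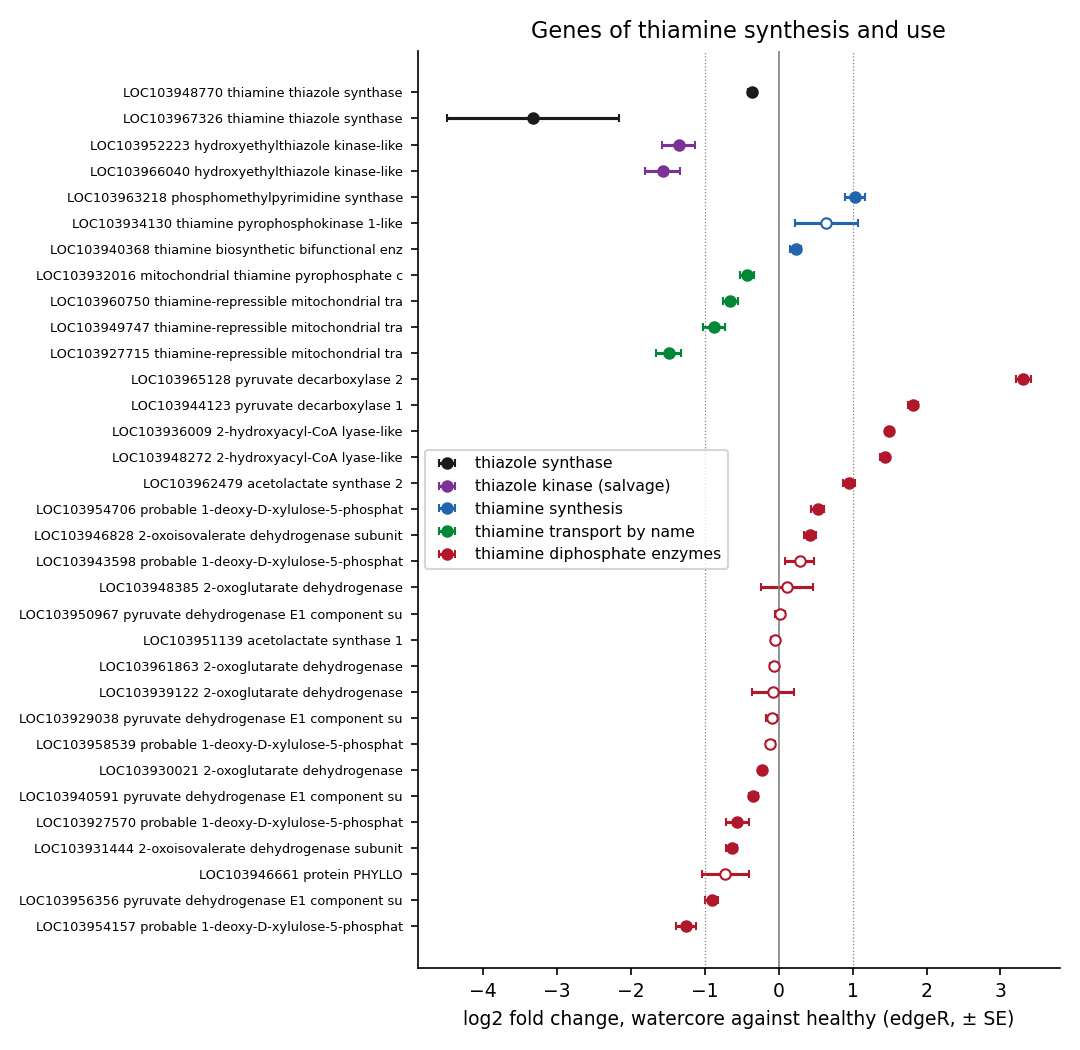
Log2 fold change, watercore against healthy pulp (edgeR, bars ± 1 SE), of the tested genes of thiamine synthesis, salvage, transport and use, with filled points where the adjusted p was under 0.05 and dotted lines at -1 and 1. LOC103948770 lies at -0.36, the thiazole kinases and transport names lie at negative values, and the pyruvate decarboxylase genes lie at the far positive end with 3.31 and 1.82.

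Enzymes that bind thiamine diphosphate held genes that changed in each direction, in shares near those of the whole table. The list held 29 rows, or 27 without 2 phylloplanin rows that its pattern had also taken, and 22 were tested. Among these, 7 passed the adjusted p and were higher (32.3% over all tested genes), 6 were lower (30.4%) and 9 did not pass, with a median log2 fold change of -0.06. Called genes were 4 higher and 1 lower, beside 17.6% and 7.54% over all tested genes. LOC103965128, pyruvate decarboxylase 2, which turns pyruvate into acetaldehyde, went from 116 ± 15.4 to 1162 ± 53.1 FPKM (log2 fold change 3.31, SE 0.10, adjusted p = 8.2e-08 in edgeR). Its counts were 6213, 7964 and 6198 in healthy and 69238, 69402 and 64418 in watercore pulp. LOC103944123, pyruvate decarboxylase 1, went from 108 ± 8.43 to 384 ± 9.88 FPKM (log2 fold change 1.82). Both genes named 2-hydroxyacyl-CoA lyase, an enzyme that shortens branched and hydroxylated fatty acids in animals, were called as higher, LOC103936009 at 1.497 and LOC103948272 at 1.43. LOC103954157, a 1-deoxy-D-xylulose-5-phosphate synthase, the first enzyme of plastid isoprenoid synthesis, was called as lower, from 4.88 ± 0.460 to 2.07 ± 0.0932 FPKM (log2 fold change -1.25). The summed level of the list lay between 2263 and 2450 CPM in the healthy libraries and between 6956 and 7355 CPM in the watercore libraries, a higher sum that came mostly from LOC103965128. The pattern of the list also held transketolase, another enzyme of this group, but no row of the list carried that name.

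Genes listed for NAD and glycine, the other substrates of the enzyme, also passed the test in shares near those of the whole table. The list mixes genes that make these substrates with genes that use them, such as NAD kinase and glycine dehydrogenase (decarboxylating). Its counts therefore do not describe supply alone. Of 45 rows, 32 were tested, 10 of which passed the adjusted p and were higher (32.3% over all tested genes), 8 were lower (30.4%) and 14 did not pass, with a median of -0.08. Called genes in edgeR were 3 higher and 0 lower, beside 17.6% and 7.54% over all tested genes, where 8 passed the adjusted p alone as lower. All 3 called genes act at the start of NAD synthesis from aspartate. LOC103926778, quinolinate synthase, went from 17.9 ± 2.73 to 74.7 ± 6.23 FPKM (log2 fold change 2.05, SE 0.11, adjusted p = 1.2e-06 in edgeR), with counts of 685, 747 and 879 in healthy and 3622, 2921 and 3100 in watercore pulp. The L-aspartate oxidase genes LOC103963954 and LOC103926924 had log2 fold changes of 1.29 and 2.11. The most abundant gene of this list by CPM over the 6 libraries, LOC103954717, which LOC103926778 exceeded within watercore pulp, a nicotinamidase that breaks nicotinamide down to nicotinic acid, was slightly lower at -0.28 (adjusted p = 0.0016), and at -0.060 (adjusted p = 0.284) with gene length offsets.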

How the data were processed

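RNA was sequenced from 3 healthy and 3 watercore libraries, grouped by their GEO titles. The authors dropped reads of low quality, or with poly-N or adapter sequence, and aligned the others to the Pyrus betulifolia genome with HISAT2, which the submitters' processing notes also name. The study names its genes by chromosome, whereas the deposited counts carry LOC names on NW scaffolds. These namings were not matched here, so the genome behind the counts and coordinates is not settled. The sources used here do not give the counting tool, annotation or strand setting. The authors deposited raw counts per gene and FPKM, which are the counts divided by gene length and a library factor. The table also holds comparison columns that the authors deposited and that were not used: a scaled mean signal per group, the log2 fold change and p-values from DESeq2. All columns with values per library were mapped to a sample.

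Counts were tested with the quasi-likelihood test of edgeR 4.0.16 (R 4.3.3, TMM factors, filterByExpr, no covariate), adjusted over 21200 genes. A gene was called at an adjusted p under 0.05 and a log2 fold change of 1 or more in size, the form of threshold the study used. The common biological coefficient of variation was 0.143. CPM use the TMM-scaled library sizes. Alternatives were DESeq2 1.42.0, other scalings and filters on low counts, glmTreat, the replicate number as a block, offsets for gene length (a smooth trend per library), limma 3.58.1 on log2(FPKM + 1) and log2(FPKM + 0.1) with or without a minimum mean FPKM of 1, and each library left out. Scripts were tested on simulated data. Shares and figures used scipy 1.17.1, pandas 2.3.3, numpy 2.4.6 and matplotlib 3.10.9 under Python 3.11.15.

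The gene, its lists by product name and the tests were chosen with earlier results of these data known. The text names the gene, rows of the same name, all called members of a list if at most 5 and otherwise the largest change each way, the most abundant member of each list, the nearest genes in mean FPKM, and the 5 most alike profiles. Neighbours on the scaffolds, the hydroxyethylthiazole kinase rows and other genes beyond this rule were added after their values were seen. Patterns take every row whose product name holds them, so a member need not have that function. No sequences are printed, because no reference was used here.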

Additional observations from a re-analysis of the deposited data

How the results depend on the processing

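LOC103948770 kept its direction in all 19 alternatives, between -0.405 (library size without the 10 genes of most counts) and -0.206 (gene length offsets), and -0.38 to -0.34 with 1 library left out. It did not pass the threshold with glmTreat (-0.36, adjusted p = 1), which tests against a minimum fold, or with limma on log2(FPKM + 1) without a filter (-0.35, adjusted p = 0.338), where the adjusted p was 0.0103 with a minimum mean FPKM. LOC103967326 lost its call with DESeq2 (-3.32), glmTreat (-3.33), limma on log2(FPKM + 1) without and with the minimum (-1.65 in both) and on log2(FPKM + 0.1) (-3.11), ranged from -6.46 to -2.70 with 1 library left out, and could not be tested with at least 10 counts in every library. Same-numbered libraries did not deviate together (correlations 0.037, 0.003 and -0.003). These correlations cannot show whether such libraries share fruits or trees, which the sources do not give. The replicate block in edgeR gave -0.36 for LOC103948770 (adjusted p = 9.1e-04) and -3.51 for LOC103967326 (adjusted p = 0.0067). Over all genes, called higher were 3730 (2205 with at least 10 counts in every library, 2463 with glmTreat, 2313 and 2123 with limma on log2(FPKM + 1) without and with the minimum) and called lower 1599 (1047, 564, 824 and 817). DESeq2 and no filter, which test more genes of low count, moved the median of all genes by 0.15 and 0.12. The called higher gene of thiamine synthesis gave 0 with library sizes without the 10 top genes, glmTreat, length offsets, both limma fits on log2(FPKM + 1) and without healthy replicate 2 (0 to 1 over libraries left out), and 2 with no filter. The called lower thiamine diphosphate enzymes were 2 with length offsets and 0 with glmTreat and both limma fits on log2(FPKM + 1). The 3 called lower genes of other B vitamins became 1 with DESeq2, at least 10 counts, glmTreat and limma on log2(FPKM + 0.1), and 0 with both limma fits on log2(FPKM + 1). Turned directions were all in values that did not pass the test in that setting: LOC103943480 at 0.019 (at least 10 counts) and 0.00091 (length offsets), LOC103943574 at 0.070 and LOC103967337 at 0.086 (length offsets), and LOC103967286 at 0.0048 (RLE) and 0.048 (at least 10 counts). With 1 library left out, LOC103943480 ranged from -0.17 to 0.093, LOC103948779 from -0.086 to 0.28 and LOC103967286 from -0.063 to 0.028. Where no cause is named, the cause was not tested.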

Other observations

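Genes for other B vitamins were listed by product name. Of 43 rows, 36 were tested, 11 passed the adjusted p and were higher (32.3% over all tested genes), 12 were lower (30.4%) and 13 did not pass, with a median log2 fold change of 0.01. Called genes were 5 higher and 3 lower, beside 17.6% and 7.54% over all tested genes, so that these shares were near those of the whole table. The largest rise was in LOC103933196, a 3-methyl-2-oxobutanoate hydroxymethyltransferase of pantothenate (vitamin B5) synthesis, from 0.371 ± 0.101 to 5.65 ± 0.793 FPKM (log2 fold change 3.90, SE 0.26, adjusted p = 3.7e-06 in edgeR), with counts of 8, 12 and 7 in healthy and 119, 149 and 140 in watercore pulp. The largest fall was in LOC103935896, a folylpolyglutamate synthase, which adds glutamates to folate, from 2.24 ± 0.205 to 0.749 ± 0.0351 FPKM (log2 fold change -1.59, adjusted p = 2.6e-04). The most abundant by CPM over the 6 libraries, LOC103955643, a bifunctional enzyme of riboflavin (vitamin B2) synthesis, went from 29.0 ± 2.64 to 44.6 ± 1.29 FPKM (log2 fold change 0.61, adjusted p = 1.1e-04). Within healthy pulp LOC103962639, a pyridoxine 5'-phosphate oxidase of vitamin B6 synthesis, stood above it at 88.5 CPM against 61.5, and it went to 44.4 CPM in watercore pulp (log2 fold change -0.99, adjusted p = 6.5e-06).

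LOC103967326 had uneven counts among libraries of 1 group (high in healthy 2 and 3 and watercore 2, low in healthy 1 and watercore 1 and 3). The 5 genes nearest to this profile were picked for that likeness, after its values were seen, by the RMS difference of centred log2 CPM among 21199 genes. LOC103954804, a lysine-specific demethylase 5D-like gene, had 25, 164 and 175 counts in healthy and 17, 103 and 21 in watercore pulp. LOC103932892, named disease resistance protein RPP4-like, had 19, 34 and 108 counts and 0, 9 and 3 counts. LOC103966115, uncharacterized, had 4, 45 and 220 counts and 10, 47 and 6 counts. LOC103967373, a chloroplastic OSB4-like gene, had 3, 55 and 118 counts and 10, 94 and 2 counts. LOC103954473, an EI24 homolog, had 4, 39 and 43 counts and 7, 29 and 3 counts. Their RMS differences from LOC103967326 were 1.05 to 1.22, far wider than those of the genes nearest to LOC103948770. Between the groups LOC103932892 was called as lower (log2 fold change -3.72, adjusted p = 0.0064 in edgeR), and the other 4 did not pass the adjusted p of 0.05. What these libraries share was not tested.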
